A study of Mus musculus with 9 samples.

Results

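The genes described here encode the machinery with which the liver senses bacterial products, and all 10 chosen by name were present among the 32285 gene rows of the deposited table. They are Lbp, Cd14, Tlr2, Tlr4, Tlr5, Ly96, Myd88, Nfkbia, Irak3 and Socs3. All 10 passed the filter on low values (a mean of at least 10 normalized counts over the 9 libraries), as did 12100 genes in total. The rule named them by function, with no measured value in it, though earlier results of these data were known when they were chosen.

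Liver RNA was sequenced from Tet-OFF mice in 3 groups of 3 libraries: Control, Dox (doxycycline) and Tc (tetracycline). The mice carried a PB CAG-CreERT2 allele, whose CAG promoter is active in nearly all cell types, and, at Rosa26, a loxP-stop-loxP tTA allele opposite a reporter allele, tetO-Venus-ires-mCherry. All 3 groups were given tamoxifen, which activates the Cre and so the tTA, at 4 weeks of age. The Dox and Tc groups then drank water with 2 mg/mL of the drug for 7 days, and the comparison asks what each drug changes in the liver. Per the paper, the water with the drug also held sucrose, and the mice of the liver profiles were male. Both drugs also stop tTA from driving the reporter, so an effect of a drug and an effect of silencing the transgene cannot be told apart. What the Control mice drank is not given in the sources used here, so an effect of the sucrose cannot be told apart from that of a drug either.

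In the liver, products of gut bacteria arrive with the portal blood and meet both hepatocytes and resident macrophages, the Kupffer cells. Lipopolysaccharide of Gram-negative bacteria is bound by Lbp in plasma, passed to Cd14, and recognised by the complex of Tlr4 with Ly96 (also called MD-2). Tlr2 recognises bacterial lipoproteins and Tlr5 recognises flagellin, the protein of bacterial flagella. These receptors signal through the adaptor Myd88 to NF-kB. NF-kB induces its own inhibitor Nfkbia (IkB-alpha), Irak3 (IRAK-M) limits the kinases next to Myd88, and Socs3 limits signalling through STAT3.

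Values are normalized counts, that is reads per gene divided by a size factor per library. The Control libraries held 8250804 to 10912338 reads on genes, the Dox libraries 7426136 to 10330238 and the Tc libraries 10216627 to 12183041. Library 3 of each group lay between libraries 1 and 2 for nearly all genes (mean of at least 50) that differed over 2-fold between those (98.1% in Control, 99.5% in Dox, 99.4% in Tc), so the 3 libraries of a group cannot be read as 3 independent livers and adjusted p-values from all 9 are too small. Results are therefore also given without libraries 3. The first and second Dox libraries differed over 2-fold at 2987 genes with a mean of at least 50, against 215 in Control and 473 in Tc. All 7 hepatocyte markers and all 10 Kupffer cell markers were above 0 in every library, which fits the label of whole liver.

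In the Control livers, Lbp was by far the most abundant of these transcripts per length of exon. Its level ranged from 788.4 to 975.3 normalized counts per kb (median 945.8), followed by Nfkbia (380.8 to 408.3, median 402.4) and Myd88 (79.7 to 85.9, median 80.9), with no overlap between neighbours. Cd14 (36.7 to 64.4) and Socs3 (33.3 to 64.3) came next and did not differ beyond their spread. The ranges of Tlr2 (13.3 to 24.9), Irak3 (9.21 to 20.8), Ly96 (13.0 to 22.8), Tlr5 (11.5 to 16.1) and Tlr4 (7.43 to 13.3) overlapped from one to the next. In the Tc livers Tlr5 stood at 41.8 to 52.8 normalized counts per kb, without overlap with Tlr2 (15.6 to 26.3) or Ly96 (15.9 to 19.1).

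Tlr5 was the receptor with the clearest difference. The gene lies at chr1:182954788-182976044 on the plus strand (GRCm38). It had 55.0, 77.0 and 62.3 normalized counts in the Control libraries, 194.8, 49.5 and 141.6 in the Dox libraries, and 252.9, 209.5 and 200.4 in the Tc libraries. Every Tc library was above every Control and every Dox library. With Dox, libraries 1 and 3 were above all Control libraries, while library 2 was below them.

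In the limma fit of all 9 libraries, Tlr5 was 3.39-fold higher with Tc than in Control (log2 fold change 1.76, SE 0.43, 95% interval 0.77 to 2.75), with an unadjusted p of 0.0031 and a Benjamini-Hochberg adjusted p of 0.185 over all tested genes. DESeq2 on the recovered reads called it, with a log2 fold change of 1.77 and an adjusted p of 0.00514, and edgeR did not (adjusted p = 0.154). A limma fit of the Tc and Control libraries alone gave an adjusted p of 0.00254. Without libraries 3 the log2 fold change was 1.81 and neither limma nor DESeq2 called the gene (adjusted p = 1 in both). The difference thus kept its size and lost its call without libraries 3, where limma called 0% of all tested genes and DESeq2 0.0291%. For Tlr5 itself, Tc library 3 (200.4 normalized counts) lay slightly below Tc library 2 (209.5). In Control (62.3) and Dox (141.6) library 3 lay between libraries 1 and 2. These values do not show that libraries 3 are independent for this gene.

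For Dox, Tlr5 had a log2 fold change of 0.78 against Control (SE 0.43, limma adjusted p = 0.264). Without Dox library 2 it was 1.36, with a limma adjusted p of 0.0046 and a DESeq2 adjusted p of 7.91e-06. With the same omission, Tc against Control had a limma adjusted p of 0.0029. Between the drugs Tlr5 was lower with Dox by a log2 fold change of -0.98 (SE 0.43, 95% interval -1.97 to 0.01, limma adjusted p = 0.234). Without Dox library 2 that difference was -0.40 (limma adjusted p = 0.302), so much of its size rests on this library.

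The other receptors showed no such separation. Tlr2, at chr3:83836272-83841767 on the minus strand, had 40.2, 75.2 and 61.0 normalized counts in Control, 28.4, 101.2 and 65.1 in Dox, and 46.9, 79.1 and 66.5 in Tc. Library 1 was the lowest and library 2 the highest in each of the 3 groups, and the groups overlapped. Its log2 fold changes were 0.01 with Dox and 0.14 with Tc (SE 0.45 each, limma adjusted p = 0.991 and 0.945).

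Tlr4, at chr4:66827584-66930284 on the plus strand, had 41.3, 41.6 and 73.7 normalized counts in Control, 23.2, 72.5 and 30.8 in Dox, and 35.2, 61.1 and 28.6 in Tc. Its partner Ly96, which holds the lipid part of lipopolysaccharide in the receptor complex and lies at chr1:16688051-16709611 on the plus strand, had 23.3, 13.3 and 14.0 in Control, 19.0, 9.2 and 11.4 in Dox, and 19.5, 16.2 and 17.7 in Tc. The groups overlapped for both genes. The log2 fold changes of Tlr4 were -0.42 with Dox and -0.34 with Tc (SE 0.46 each, limma adjusted p = 0.573 and 0.843), and those of Ly96 were -0.35 and 0.11 (SE 0.35 each, limma adjusted p = 0.537 and 0.941). Ly96 rests on 8 to 22 reads per library, so a modest difference would not be detectable at this depth.

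**Figure D1:**
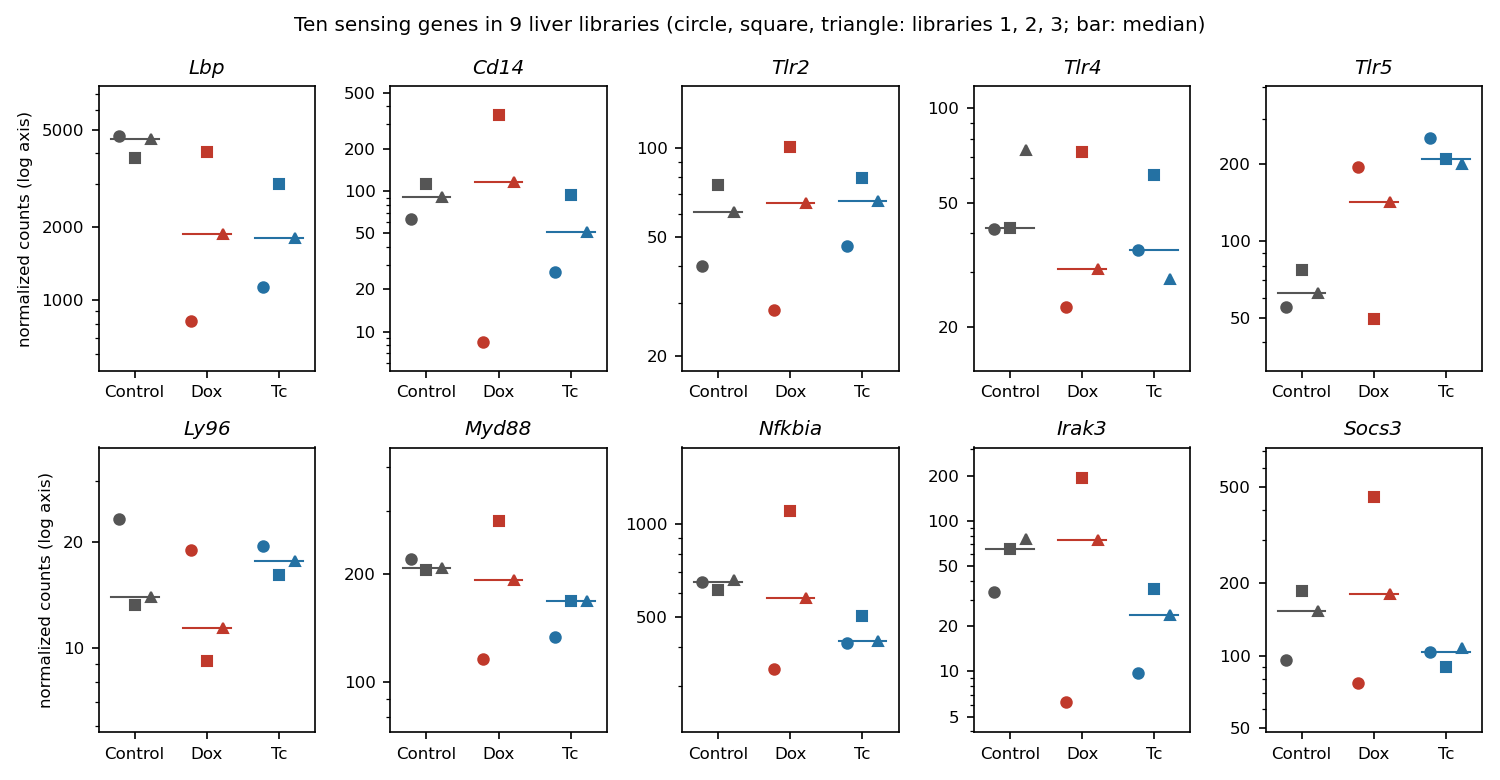
Normalized counts (log axis) of the 10 genes in the 9 liver libraries, by group, with circle, square and triangle for libraries 1, 2 and 3 and a bar at the group median. Tlr5 is above all Control libraries in every Tc library (200.4 to 252.9), and for 8 of the 10 genes the square of the Dox group lies over 2-fold above its circle.

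Lbp and Cd14 carry lipopolysaccharide to the receptor complex. Lbp, which hepatocytes secrete as an acute-phase protein, lies at chr2:158306493-158332852 on the plus strand. It had 4711.5, 3808.6 and 4569.3 normalized counts in Control, 821.3, 4029.5 and 1870.4 in Dox, and 1135.7, 3005.3 and 1800.7 in Tc. All Tc libraries lay below all Control libraries. With Dox, libraries 1 and 3 lay below the Control libraries and library 2 lay among them.

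The log2 fold change of Lbp was -1.24 with Dox and -1.25 with Tc (SE 0.54 each). Unadjusted limma p-values were 0.049 and 0.0485, and the adjusted ones 0.17 and 0.427, so neither difference passed the test. DESeq2 gave adjusted p-values of 0.206 and 0.348. Without Dox library 2 the Dox difference was -1.81 with a limma adjusted p of 0.0185 (DESeq2 -1.70, adjusted p = 0.0108), and the limma adjusted p for Tc was 0.0923. Between the drugs the difference was 0.00 (95% interval -1.23 to 1.24), a range that spans more than 2-fold in both directions.

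Cd14, the coreceptor that macrophages carry on their surface and that hepatocytes can also make, lies at chr18:36725067-36726798 on the minus strand. It had 63.5, 111.5 and 91.5 normalized counts in Control, 8.4, 349.7 and 115.3 in Dox, and 26.4, 94.4 and 51.4 in Tc. The lowest and the highest of all 9 values were both Dox libraries, resting on 8 and 304 reads. Its log2 fold change was -0.27 with Dox and -0.77 with Tc (SE 1.13 each, limma adjusted p = 0.894 and 0.852). The sign for Dox depended on the test, since DESeq2 gave 0.83 (adjusted p = 0.576). Without Dox library 2, limma gave -1.40 (adjusted p = 0.3) and DESeq2 gave -0.52 (adjusted p = 0.804).

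Myd88, the adaptor shared by these receptors, lies at chr9:119335934-119341411 on the minus strand and overlaps the annotated genes Slc22a14 and Acaa1a. The strand setting of the counting is not given in the sources used here, so reads in the part shared with Acaa1a, on the opposite strand, may not be assigned with certainty. Myd88 had 221.2, 205.2 and 208.5 normalized counts in Control, 115.8, 283.0 and 192.7 in Dox, and 133.8, 169.1 and 168.4 in Tc. The Tc libraries were all below the Control libraries and the Dox libraries lay on both sides of them. The log2 fold change was -0.19 with Dox and -0.44 with Tc (SE 0.28 each, limma adjusted p = 0.676 and 0.613).

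The inhibitors Nfkbia, Irak3 and Socs3 are themselves induced when the pathway or cytokine signalling is active. Promoter sequences are shown for Nfkbia and Socs3, each of which holds 1 match to a binding motif of such factors, and for Tlr5, the gene with the clearest difference. Each window runs from 250 bases before to 50 bases after a transcript start listed by RefSeq (GRCm38.p6), and capitals mark motif matches. The motifs searched on both strands were the NF-kB consensus, the STAT motif TTCNNNGAA and the C/EBP motif TTGCNNAA, which occur in 4.51%, 8.3% and 10.8% of 32851 promoters in the RefSeq table.
Nfkbia, chr12:55492598-55492897, minus strand: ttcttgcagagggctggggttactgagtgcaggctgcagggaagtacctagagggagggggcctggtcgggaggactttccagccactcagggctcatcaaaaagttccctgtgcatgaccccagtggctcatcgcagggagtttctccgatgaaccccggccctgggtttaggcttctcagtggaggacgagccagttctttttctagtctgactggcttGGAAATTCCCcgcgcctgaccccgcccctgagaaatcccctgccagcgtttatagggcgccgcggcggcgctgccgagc
Socs3, chr11:117969317-117969616, minus strand: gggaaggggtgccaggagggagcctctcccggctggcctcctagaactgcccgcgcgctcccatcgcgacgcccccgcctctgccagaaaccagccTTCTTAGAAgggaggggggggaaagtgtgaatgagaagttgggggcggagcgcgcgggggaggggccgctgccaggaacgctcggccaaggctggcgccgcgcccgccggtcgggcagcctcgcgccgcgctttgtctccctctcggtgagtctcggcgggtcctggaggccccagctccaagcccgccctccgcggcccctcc
Tlr5, chr1:182954538-182954837, plus strand: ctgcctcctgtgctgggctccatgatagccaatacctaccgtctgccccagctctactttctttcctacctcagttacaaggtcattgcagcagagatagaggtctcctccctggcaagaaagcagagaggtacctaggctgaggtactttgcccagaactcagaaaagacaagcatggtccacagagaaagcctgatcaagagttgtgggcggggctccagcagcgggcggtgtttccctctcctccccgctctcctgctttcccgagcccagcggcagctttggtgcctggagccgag
In Nfkbia the match to the NF-kB consensus began 29 bases before the start, and in Socs3 the match to TTCNNNGAA began 154 bases before it. The Tlr5 window held 0 matches to the 3 motifs. Among the other genes searched with a listed promoter, Tlr2 held 3 matches to the NF-kB consensus, 2 of which overlap, and Myd88 held 1 match to TTCNNNGAA. For Irak3, 1 of 2 listed promoters held 1 match to TTGCNNAA. Cd14 was left out of the search. A match describes letters in the window and not a site in use.

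Nfkbia, at chr12:55489410-55492647 on the minus strand, had 647.8, 613.1 and 657.3 normalized counts in Control, 340.1, 1100.8 and 578.0 in Dox, and 413.1, 502.7 and 417.7 in Tc. All Tc libraries were below all Control libraries, while Dox library 1 was the lowest and Dox library 2 the highest of the 9. The log2 fold change was -0.09 with Dox and -0.53 with Tc (SE 0.35 each, limma adjusted p = 0.886 and 0.624). In a limma fit of Tc and Control alone the adjusted p was 0.0265, with a fold under the limit of 2.

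Irak3, at chr10:120141648-120202130 on the minus strand and overlapping Gm47009 and Tmbim4 on the plus strand, had 33.9, 65.5 and 76.3 normalized counts in Control, 6.3, 192.1 and 74.8 in Dox, and 9.8, 35.1 and 23.6 in Tc. As for Cd14, Dox libraries 1 and 2 were the lowest and the highest of all 9, with 6 and 167 reads. Its log2 fold change was -0.25 with Dox and -1.41 with Tc (SE 1.06 each, limma adjusted p = 0.896 and 0.675). DESeq2 gave 0.64 for Dox.

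Socs3, at chr11:117966079-117970047 on the minus strand, had 96.3, 185.8 and 152.6 normalized counts in Control, 76.9, 454.4 and 180.4 in Dox, and 103.5, 89.9 and 107.8 in Tc. The groups overlapped, with Dox library 2 far above the rest. The log2 fold change was 0.40 with Dox and -0.48 with Tc (SE 0.55 each, limma adjusted p = 0.652 and 0.809).

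Over all 10 genes, 0 passed the limma test in any comparison, where a call needs a fold over 2 and an adjusted p under 0.05. The unadjusted p was under 0.05 for 1 gene with Dox (Lbp), 2 with Tc (Lbp and Tlr5) and 0 between the drugs. Over all 12100 tested genes it was under 0.05 for 3516, 1412 and 2622 in the same order. Among all tested genes limma called 5% for Dox against Control, 0.165% for Tc against Control and 0.215% for Dox against Tc. DESeq2 called 0, 1 (Tlr5) and 0 of the 10, where it called 8.71%, 1.28% and 4.53% of the genes it tested. Without libraries 3, 0 of the 10 were called by limma or DESeq2 in any comparison, with an unadjusted p under 0.05 for 1 gene with Tc and 0 otherwise in both tools. Limma then called 0% of all genes in each comparison, and DESeq2 called 0.882%, 0.0291% and 0.266%. The unadjusted limma p was then under 0.05 for 1040, 239 and 454 of all 12100 tested genes.

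Group separation gives a plainer view of the same values. For Dox against Control all 10 genes overlapped, where 16.1% of all tested genes were higher and 17.1% lower without overlap. For Tc against Control 1 of the 10 was higher without overlap (Tlr5) and 3 were lower (Lbp, Myd88 and Nfkbia), against 15.8% and 14.9% of all genes. For Dox against Tc 0 were higher and 1 (Tlr5) was lower, against 12.2% and 12.4%. The median log2 fold change of the 10 genes was -0.22 with Dox and -0.46 with Tc, beside 0.00 over all genes in both.

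**Figure D2:**
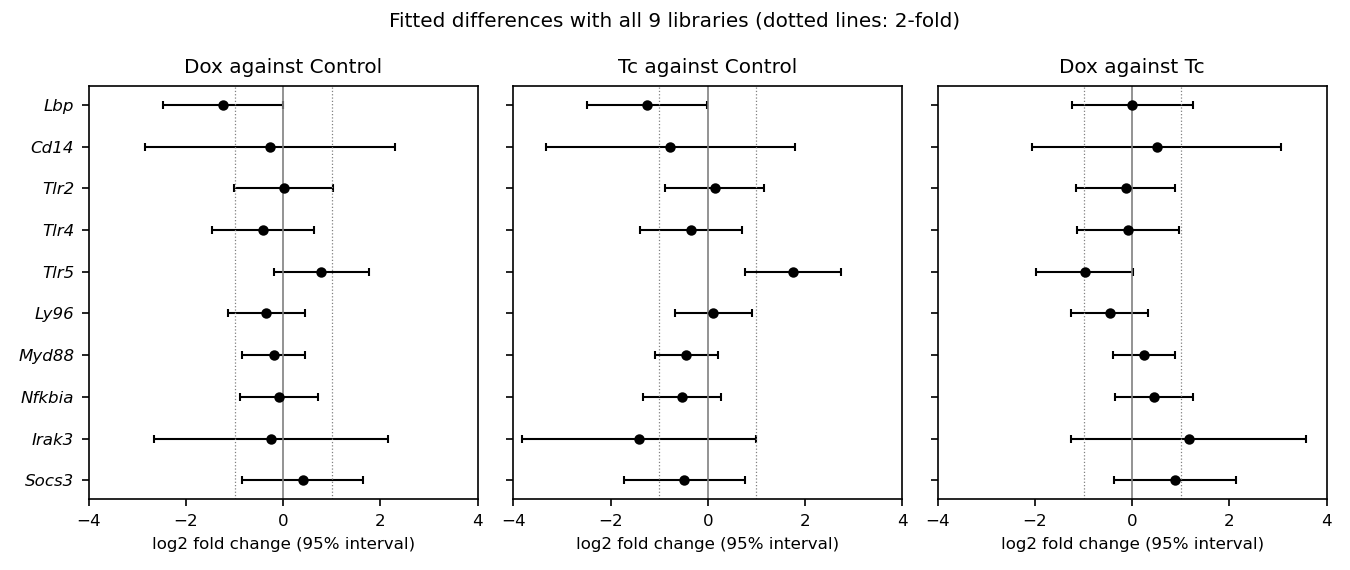
Log2 fold changes of the 10 genes (points) with 95% intervals (bars) from the limma fit of all 9 libraries, for Dox against Control, Tc against Control and Dox against Tc; dotted lines mark 2-fold. The interval of Tlr5 for Tc against Control (0.77 to 2.75) lies above 0, and those of Cd14 and Irak3 are the widest.

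For the direct comparison of Dox with Tc, related tetracyclines given at the same concentration and for the same time, the 10 genes gave 10 differences, none of which passed the test after adjustment over all genes. Besides Tlr5 and Lbp, the fitted log2 differences (Dox against Tc) were 0.50 for Cd14 (95% interval -2.07 to 3.06), -0.13 for Tlr2 (-1.15 to 0.89), -0.08 for Tlr4 (-1.13 to 0.97) and -0.46 for Ly96 (-1.25 to 0.33). They were 0.24 for Myd88 (-0.40 to 0.89), 0.44 for Nfkbia (-0.36 to 1.24), 1.16 for Irak3 (-1.25 to 3.57) and 0.88 for Socs3 (-0.37 to 2.13). The intervals of Ly96, Nfkbia, Irak3, Socs3, Cd14, Tlr2 and Tlr4 reach past 2-fold in at least 1 direction, so these data do not show that the drugs act alike on them. Without Dox library 1, limma called 4 of the 10: Cd14 (1.97, adjusted p = 0.0477), Irak3 (2.51, adjusted p = 0.0288) and Socs3 (1.51, adjusted p = 0.0352) higher and Tlr5 (-1.38, adjusted p = 0.0414) lower with Dox. Of all 12100 tested genes limma called 1362 in that fit, against 26 with all 9 libraries. Without Dox library 2 it called 0 of the 10 and 179 of all tested genes. The differences of Cd14, Irak3, Socs3 and Tlr5 were then -0.64, 0.15, 0.23 and -0.40.

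The largest contrast among these genes was inside the Dox group. With a pseudocount of 1 added to both values, 8 of the 10 genes were over 2-fold higher in Dox library 2 than in Dox library 1 and 1 (Tlr5) was over 2-fold lower, against 17.7% and 17.6% of all tested genes. Without the pseudocount, the ratio of library 2 to library 1 was 41.5 for Cd14, 30.4 for Irak3, 5.91 for Socs3 and 4.91 for Lbp. It was 3.56 for Tlr2, 3.24 for Nfkbia, 3.13 for Tlr4 and 2.44 for Myd88, and it was 0.25 for Tlr5 and 0.49 for Ly96, which is over 2-fold lower as well on this scale. These ratios compare single libraries and have no test.

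In Tc the same ratio passed 2-fold for 3 of the 10 genes, Lbp (2.65), Cd14 (3.58) and Irak3 (3.59), and for 0 in the other direction, against 6.16% and 2.29% of all genes. In Control it passed 2-fold for 0 of the 10 in either direction, against 2.69% and 2.15%. The median SD of log2 values over the 3 libraries was 0.97 for the 10 genes in Dox, 0.29 in Tc and 0.42 in Control, beside 0.38, 0.18 and 0.16 over all genes. All 10 genes had an SD above the median of all genes in Dox, as did 6 in Tc and 8 in Control.

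The markers of Kupffer cells followed these values only in part. The summed level of the 10 Kupffer cell markers was 9880.3 to 18015.9 normalized counts in Control, 2746.2, 9216.2 and 4666.4 in Dox libraries 1, 2 and 3, and 4844.5 to 9512.4 in Tc. Of the 10 markers, 6 were below all Control libraries in every Dox library, and 6 in every Tc library. Of all tested genes, 17.1% and 14.9% were lower without overlap. The sum was 3.36 times as high in Dox library 2 as in Dox library 1, and 1.82 and 1.96 times as high in the second library of Control and Tc. In Dox library 2 the sum was still below every Control library. There Cd14, Tlr2, Myd88, Nfkbia, Irak3 and Socs3 were above every Control library, while Lbp, Tlr4, Tlr5 and Ly96 were not. The Dox ratio of the sum was smaller than those of Cd14 and Irak3, but single markers ranged from 1.44 (Clec4f) to 91.2 (Marco), on both sides of these 2 genes. In bulk liver, fewer cells of a type and less RNA per cell cannot be told apart.

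Markers of the other cell types also differed. The sum of 7 sinusoidal endothelial markers was 4848.1 to 5042.3 in Control, 2473.5 to 3134.6 in Dox and 3780.1 to 4322.7 in Tc. In each drug group 5 of the 7 were below all Control libraries (17.1% of all tested genes with Dox, 14.9% with Tc). The sum of 10 monocyte and neutrophil markers was 1092.4 to 2551.5 in Control, 311.7 to 813.3 in Dox and 767.5 to 1170.8 in Tc. Of these markers, Ly6c2, Ngp, Camp and Mpo were at 0 in at least 1 library. The sum of 7 hepatocyte markers was lowest in Dox library 2, at 338175.9, against 781774.9 in Dox library 1 and 1160701.2 to 1621559.3 in Control. Alb made up 255547.5 of the sum in Dox library 2. Of the 7 markers, 2 (Alb and Fgb) were below all Control libraries in every Dox library and 0 in every Tc library. These counts stand beside the same 17.1% and 14.9% of all tested genes. Hnf4a, a hepatocyte transcription factor, ran the other way, with 9123.0 normalized counts in Dox library 1 and 20157.9 in Dox library 2. Stellate cell markers overlapped between groups (3007.1 to 3229.3, 2375.5 to 3482.0 and 2909.0 to 3367.7). Cholangiocyte markers summed to 199.9 to 243.5, 148.4 to 371.7 and 254.9 to 335.4, and B and T cell markers to 46.6 to 77.9, 16.1 to 23.8 and 24.4 to 40.5. The part of these cell types in the differences of the 10 genes was not tested.

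**Figure D3:**
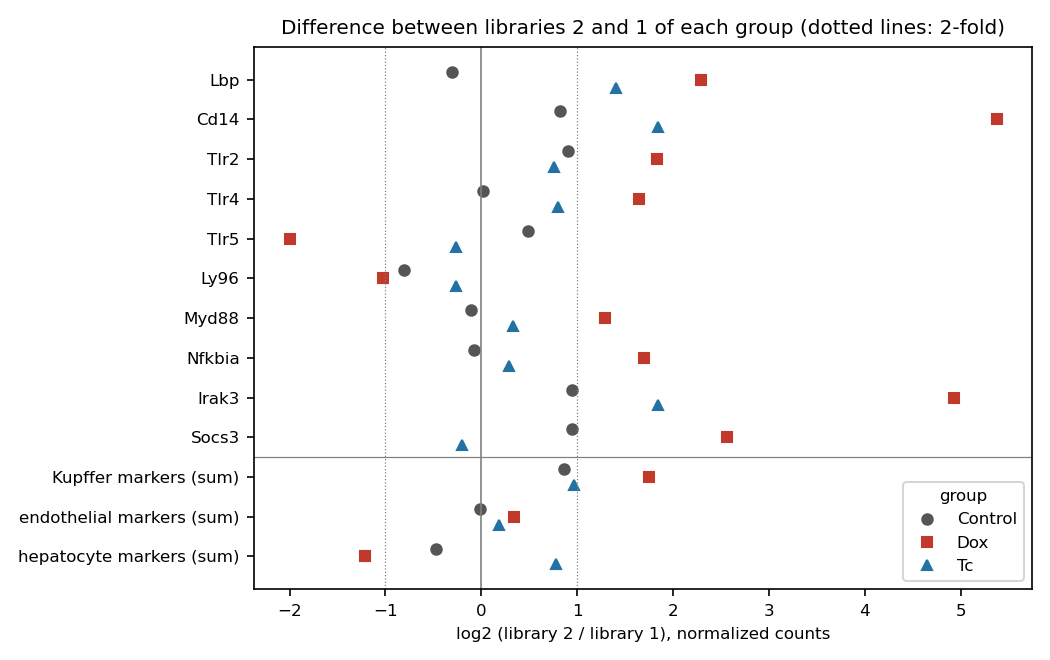
Log2 ratio of library 2 to library 1 of each group (circle Control, square Dox, triangle Tc) for the 10 genes and, under the line, for the summed Kupffer cell, sinusoidal endothelial and hepatocyte markers; dotted lines mark 2-fold. In Dox, Cd14 (41.5 times) and Irak3 (30.4 times) lie far above the Kupffer cell sum (3.36 times), and Tlr5 lies on the opposite side (0.25 times). The single Kupffer cell markers, not drawn, ranged from 1.44 (Clec4f) to 91.2 times (Marco) in Dox.

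The rest of the pathway was described with 7 lists of 103 genes, of which 89 were tested. For Dox against Control limma called 10 of the 89, of which 9 fell and 1 rose (5% of all genes were called). For Tc against Control it called 0, with 16 at an unadjusted p under 0.05 (1412 of all 12100 tested genes), while DESeq2 called 1 (Nod1, lower). For Dox against Tc it called 1 (Lifr, lower with Dox), which was lost with the replicate number as a block (0 called). The median log2 fold change of the 89 genes was -0.20 with Dox and -0.19 with Tc.

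Most receptors and accessory proteins had fitted log2 fold changes below 0 with both drugs, though limma called 0 of them with Tc. With Dox all 14 tested had a log2 fold change below 0 (median -0.95), and with Tc 11 of 14 (median -0.54). With Dox 2 of them fell: Cd180, a Toll-like receptor homologue, with 25.4, 45.1 and 40.7 normalized counts in Control and 8.4, 5.8 and 12.3 in Dox (log2 fold change -1.97, SE 0.34, limma adjusted p = 0.015), and Tlr12, a sensor of the protein profilin (-1.78, SE 0.33, limma adjusted p = 0.0184). Tlr1, the partner of Tlr2, had the most negative value (-2.22, SE 0.67, limma adjusted p = 0.0709, DESeq2 adjusted p = 0.0279). DESeq2 called 5 of the list with Dox (Tlr1, Tlr9, Tlr12, Cd180 and Nod1) and 1 with Tc (Nod1). It called 8.71% and 1.28% of the genes it tested. Without libraries 3 neither tool called any of the list. Nod1, a cytosolic sensor of peptidoglycan fragments, had 642.5, 490.1 and 559.4 normalized counts in Control, 139.0, 345.1 and 220.8 in Dox, and 158.2, 328.2 and 206.3 in Tc. Its libraries did not overlap between Control and either drug, with log2 fold changes of -1.35 and -1.34 (SE 0.35 each, limma adjusted p = 0.0509 and 0.217, DESeq2 adjusted p = 0.00984 and 0.0329). Ly86, the partner of Cd180, was at -1.32 with Tc (SE 0.51, limma adjusted p = 0.381).

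Among the 19 adaptors and kinases tested, 1 fell with Dox, Irak4, the kinase next to Myd88 (log2 fold change -1.30, SE 0.27, limma adjusted p = 0.0269). Chuk, the kinase IKK-alpha, stood at 0.82 (SE 0.24, limma adjusted p = 0.0651). With Tc the most negative were Ikbke at -0.78 (SE 0.16, limma adjusted p = 0.136) and Tab1 at -0.77 (SE 0.43, limma adjusted p = 0.542). The medians of the list were 0.19 with Dox and 0.01 with Tc.

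Subunits and inhibitors of NF-kB split between the Dox libraries, as Nfkbia did. Of the 9 tested, 0 passed against Control with either drug by limma or DESeq2, and 0 had an unadjusted limma p under 0.05. Among all 12100 tested genes, 3516 with Dox and 1412 with Tc had such a p. The medians were 0.33 with Dox (8 above and 1 below 0) and -0.28 with Tc (0 above and 9 below). Nfkbiz, a nuclear member of the IkB family, had 119.6, 122.1 and 104.3 normalized counts in Control, 63.2, 537.2 and 219.9 in Dox, and 53.7, 80.0 and 71.6 in Tc. Its log2 fold changes were 0.76 and -0.76 (SE 0.63 each, limma adjusted p = 0.446 and 0.716), and those of Nfkbie, another IkB protein, were -0.79 and -0.53 (SE 0.35 each, limma adjusted p = 0.177 and 0.616). Of the 9 genes, 6 were over 2-fold higher in Dox library 2 than in Dox library 1 and 1 was over 2-fold lower.

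Of the 11 brakes on the response tested, 0 passed with either drug by limma or DESeq2 (medians 0.12 and -0.12). An unadjusted limma p under 0.05 was found for 5 with Dox and 1 with Tc, and for 3516 and 1412 of all 12100 tested genes. Tnfaip3 (A20), which removes ubiquitin chains in the NF-kB pathway, had 115.4, 148.6 and 132.2 normalized counts in Control, 28.4, 539.5 and 187.4 in Dox, and 43.0, 78.2 and 53.9 in Tc (log2 fold change with Tc -1.20, SE 0.86, limma adjusted p = 0.658). Its 3 Dox libraries lay on both sides of Control, as those of Cd14 and Irak3 did. Trib1 and Zc3h12a had the largest values with Dox, at 0.59 (SE 0.19, limma adjusted p = 0.09) and 0.53 (SE 0.43, limma adjusted p = 0.433), and Pdlim2 was at -0.53 with Tc (SE 0.49, limma adjusted p = 0.749).

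The list named for handling of lipopolysaccharide and peptidoglycan, which also holds acute-phase proteins such as Saa1 and Itih4, had the largest differences of the pathway lists. With Dox 5 of the 11 tested were called, 4 lower and 1 higher. Saa1, an acute-phase lipoprotein component, had 16763.8, 23518.7 and 17981.1 normalized counts in Control, 281.1, 36.8 and 190.0 in Dox, and 1695.2, 30975.0 and 13224.5 in Tc. All Dox libraries lay far below all others (log2 fold change -7.24, SE 1.05, limma adjusted p = 0.0103), and DESeq2 called it without libraries 3 as well (adjusted p = 3.87e-06). Thus Saa1 was lower in Dox library 2 than in Dox library 1, the opposite order to Lbp. Itih4, a secreted acute-phase protein, fell (-2.50, SE 0.50, limma adjusted p = 0.0241), as did the scavenger receptors Stab1 (-1.63, SE 0.22, limma adjusted p = 0.00821) and Msr1 (-1.37, SE 0.25, limma adjusted p = 0.0185), found on sinusoidal endothelial cells and macrophages, whose markers were also lower. Alpl, the tissue-nonspecific alkaline phosphatase, which can remove phosphate from lipopolysaccharide, rose, from 32.8, 46.9 and 39.4 in Control to 235.9, 96.6 and 182.1 in Dox (2.01, SE 0.31, limma adjusted p = 0.0117).

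Lcn2, which binds bacterial siderophores, had a log2 fold change of -5.61 with Dox (SE 1.61, limma adjusted p = 0.0639, DESeq2 adjusted p = 0.00406). Its values were 5136.0, 5041.0 and 6067.0 in Control, 24.2, 376.1 and 141.6 in Dox, and 141.6, 16168.7 and 5294.2 in Tc, so Tc libraries 1 and 2 differed over 2-fold and stood on both sides of Control. With Tc Lcn2 was at -1.23 by limma (SE 1.61, adjusted p = 0.836) and at 0.41 by DESeq2 and edgeR (adjusted p = 0.973 and 0.937), so its direction depended on the test. Aoah, which deacylates lipopolysaccharide, was at -1.34 with Tc (SE 0.75, limma adjusted p = 0.551).

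In the list of IL-6 and STAT3 input, whose signalling Socs3 limits, 1 of 15 tested genes fell with Dox. Lifr, a receptor for cytokines of the IL-6 family, had 14135.5, 9862.5 and 13153.7 normalized counts in Control, 4107.7, 2887.3 and 3549.9 in Dox, and 11565.8, 11346.0 and 9998.8 in Tc. Its Dox libraries lay below all others, with a log2 fold change of -1.81 against Control (SE 0.20, limma adjusted p = 0.0059) and of -1.65 against Tc (SE 0.20, limma adjusted p = 0.0487). DESeq2 called both without libraries 3 (adjusted p = 0.00127 and 0.00989). Il1rn, the antagonist of the interleukin 1 receptor, stood at -2.01 with Dox and -2.02 with Tc (SE 0.77 each, limma adjusted p = 0.13 and 0.381), and Stat3 at -0.59 with Tc (SE 0.23, limma adjusted p = 0.381).

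All 10 inflammasome genes tested had log2 fold changes below 0 in both drugs (medians -0.88 and -0.41). With Dox 1 fell, Nlrp3, the sensor of the best-known inflammasome (-1.47, SE 0.37, limma adjusted p = 0.0456). It stood at -1.08 with Tc (SE 0.37, limma adjusted p = 0.337). Naip5, which like Tlr5 recognises flagellin but in the cytosol, was at -1.25 with Dox (SE 0.38, limma adjusted p = 0.0725), and Aim2, a sensor of DNA, at -1.35 with Tc (SE 0.49, limma adjusted p = 0.366). Without libraries 3 limma called 0 of the 89 genes in each comparison, whereas DESeq2 called 4 for Dox against Control (Stab1, Saa1, Itih4 and Lifr, all lower). In that limma fit 13 with Dox, 1 with Tc and 9 between the drugs had an unadjusted p under 0.05. Over all 12100 tested genes these counts were 1040, 239 and 454. Leaving out other libraries moved the limma count of 10 for Dox against Control to 6, 3 and 1 without Control libraries 1, 2 and 3. It became 18, 22 and 4 without Dox libraries 1, 2 and 3. In the same order, the limma count over all tested genes moved from 605 to 241, 124 and 33, and to 1500, 1102 and 87. Without Dox library 2, limma called 2 for Tc against Control, and 221 of all tested genes. For Dox against Tc the limma count of 1 became 19 and 5 without Dox libraries 1 and 2, 4 without Tc library 1, and 0 without any other single library. The limma count over all tested genes moved from 26 to 1362, 179, 72 and 0 in the same order.

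**Figure D4:**
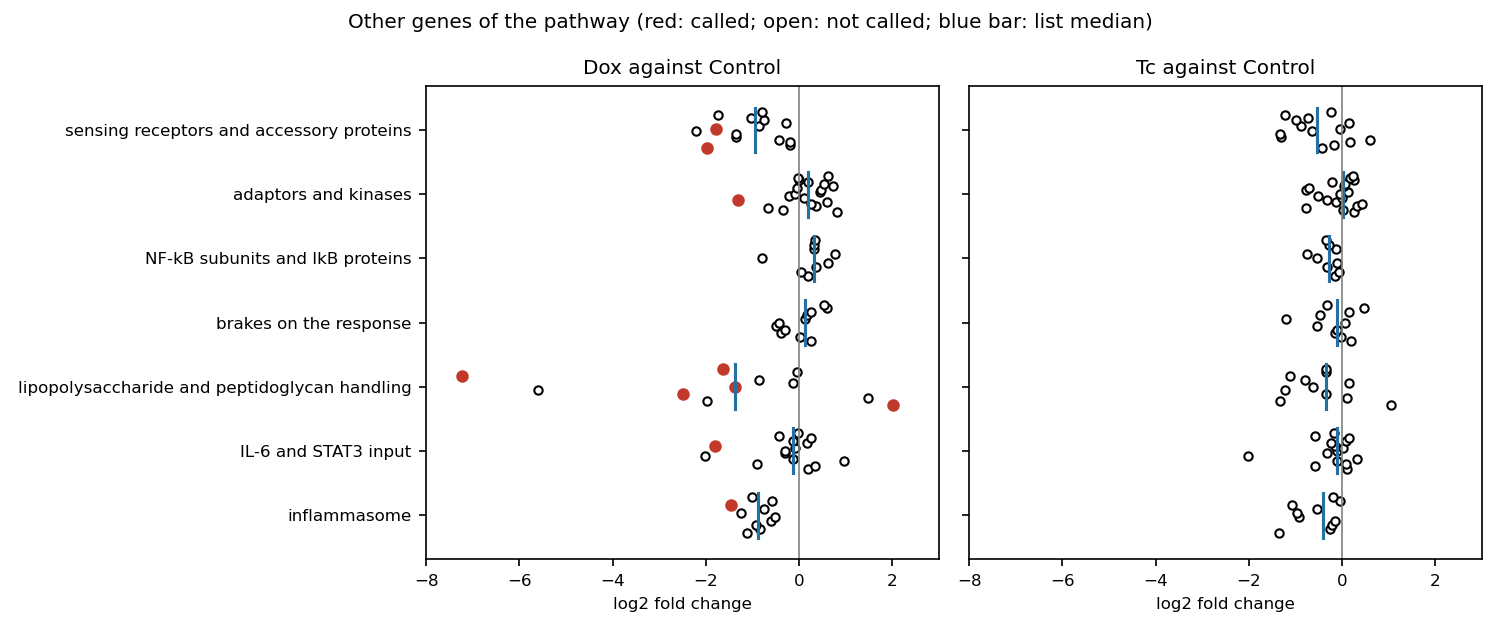
Log2 fold changes of the 89 tested genes of the 7 pathway lists (points, 1 row of points per list) for Dox against Control and Tc against Control in the limma fit of all 9 libraries, with called genes in red and list medians as blue bars. For Dox 10 genes are red, of which Saa1 lies farthest out at -7.24, and for Tc 0 are red.

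The genes most like Lbp, Cd14 and Socs3 in their levels over the 9 libraries were found by Pearson's r of log2 values among 9378 genes, as a description of libraries that share the group differences and the split inside Dox. For Lbp they were Mertk (r = 0.987), a receptor for the uptake of dying cells, Fndc3b (0.985) and Mmp14 (0.981), a membrane-bound matrix protease. Mmp14 had 801.3, 659.1 and 741.2 normalized counts in Control, 170.6, 844.3 and 400.3 in Dox, and 179.7, 473.9 and 322.6 in Tc. For Cd14 they were Pla2g7 (0.987), which encodes the plasma platelet-activating factor acetylhydrolase, Igf2bp3 (0.983) and Abcg1 (0.983), a sterol exporter. For Socs3 they were Hist2h4 (0.984), Akap2 (0.981) and Rps9 (0.979). Among the 10 genes themselves, Cd14 and Irak3 were the most alike (r = 0.96), together with Myd88 and Nfkbia (0.96), while Tlr5 ran against Myd88 (-0.86), Nfkbia (-0.85) and Lbp (-0.83).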

How the data were processed

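Per the submitters' notes and the study's methods, the authors trimmed single-end reads with cutadapt, aligned them to mm10 with STAR, counted them per gene with HTSeq 2.0.5 and normalized with DESeq2 1.42.0. The deposited values are a signal, the counts scaled by the size factor of each library. The labels and the methods name different RNA kits. Symbols were matched for 32158 of 32285 identifiers. Whole reads were recovered for 100% of the values (tolerance 0.001).

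From these, log2(normalized count + 1) entered 1 limma-trend model of 9 libraries (limma 3.58.1, R 4.3.3). P-values were adjusted by Benjamini-Hochberg over the 12100 genes whose mean was 10 or more. Fold changes are on this scale, which understates those of low genes. DESeq2 1.42.0, which tested all genes with reads, and edgeR 4.0.16 on recovered reads were alternatives, and the tests were checked on simulated data. Members and lists were chosen with earlier results of these data known. Named were all members, per list and drug the 2 genes with the largest change and any called, and for 3 members the 3 most alike genes with a mean of at least 50. Gene models are those of GENCODE on GRCm38. Cd14 was left out of the promoter search, which does not mean that RefSeq lists no promoter for it. Of the genes searched, RefSeq listed promoters for 6 and had no entry for Lbp, Tlr4 and Ly96.

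Deviations from the group means correlated between Dox and Tc libraries of the same number (r = 0.29, 0.32 and 0.18), while Control paired with neither (-0.08 to 0.06). The numbers are those of the sample titles, and a replicate block was fitted as an alternative. The study describes separate mice, but p-values measure the spread between these libraries, in which libraries 3 lie between the others.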

Additional observations from a re-analysis of the deposited data

How the results depend on the processing

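Alternatives covered the pseudocount, filters, scaling, test, groups in the fit, a replicate block, thresholds and each library left out, and those with libraries 3 left out. Chosen after seeing the data were DESeq2 without Dox replicate 2 and a block fitted to Dox and Tc alone. Of the recomputed log2 fold changes of the members, 631 kept their direction and side of the threshold, 48 reversed and 15 crossed it. The cause was not tested.

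For the 10 members, the count called with Dox against Control went from 0 to 1 with an unadjusted p and to between 0 and 2 with 1 library left out (2 by DESeq2 without Dox library 2). With Tc it went from 0 to 1 by DESeq2, 1 with only the 2 groups fitted, 2 with an unadjusted p, and 0 to 1 with 1 library left out (1 by DESeq2 without Dox library 2). For Dox against Tc it went from 0 to between 0 and 4. For the pathway genes, the count of 10 with Dox became 16 by DESeq2 or with no fold limit, 19 with an unadjusted p, 0 (limma) or 4 (DESeq2) without libraries 3, and 1 to 22 with 1 library left out (21 by DESeq2 without Dox library 2). The count of 0 with Tc became 1 by DESeq2, 3 with only the 2 groups, 7 with an unadjusted p, and 0 to 2 with 1 library left out (2 by DESeq2). The count of 1 for Dox against Tc became 0 with a pseudocount of 8, with no filter, with a mean of at least 50, by edgeR, with the 2 groups alone and without libraries 3 by limma. It became 2 by DESeq2 without them, 11 by DESeq2 or with an unadjusted p, and 0 to 19 with 1 library left out (8 by DESeq2 without Dox library 2). With the replicate block, pairing Dox with Tc, it was 0 in both fits, and the counts of the members stayed at 0. For Dox against Control the block brought Tlr1 and Tlr9 past both limits (-2.22 and -1.75, limma adjusted p = 0.0435 and 0.0459). Over all tested genes it called 557 there, against 605 without the block. With 1 library left out, the limma counts over all tested genes moved as well. They ranged from 33 to 1500 with Dox, 1 to 221 with Tc and 0 to 1362 for Dox against Tc.

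Reversed log2 fold changes with Dox were, by DESeq2, edgeR and DESeq2 without libraries 3, 0.83, 0.80 and 1.03 for Cd14, 0.64, 0.61 and 1.0 for Irak3, and 0.07, 0.06 and 0.19 for Nfkbia, which was 0.08 at equal library totals. Equal totals moved the median of all genes by 0.17 with Dox, so relative to it Nfkbia kept its sign. Without libraries 3, Tlr2 was -0.03 (limma) and Tlr4 0.20 (DESeq2) with Dox, and with Tc Tlr4 was 0.16 and 0.22 and Ly96 -0.03 (DESeq2). For Dox against Tc, Tlr2 was 0.05 at equal totals, 0.01 by DESeq2 and edgeR and 0.04 by DESeq2 without libraries 3, Tlr4 was 0.09 at equal totals and 0.01 by DESeq2, and Lbp was -0.02 by limma without libraries 3. With 1 library left out, values with Dox ranged from -1.40 to 1.21 for Cd14, -1.26 to 1.10 for Irak3, -0.39 to 0.50 for Tlr2, -0.50 to 0.14 for Myd88, -0.53 to 0.32 for Nfkbia and -0.24 to 1.03 for Socs3. By DESeq2 without Dox library 2, Tlr2 was -0.32 and Socs3 -0.17 with Dox. With Tc the limma values ranged from -0.11 to 0.34 for Tlr2 and -0.02 to 0.36 for Ly96. For Dox against Tc they ranged from -0.56 to 0.58 for Lbp, -0.64 to 1.97 for Cd14, -0.53 to 0.37 for Tlr2, -0.55 to 0.25 for Tlr4 and -0.06 to 0.58 for Myd88.

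Depth limits Ly96, and Cd14 and Irak3 in Dox library 1, to a few reads, while the other limits lie in the number of independent livers.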
